A study of Mus musculus with 6 samples.

Results

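N6-methyladenosine (m6A) is a methyl mark on adenines inside messenger RNA, and the genes described here encode the proteins that place, remove or bind it. The set was chosen by gene name and holds 10 of the 34745 genes listed: the erasers Fto and Alkbh5, the writers Mettl3, Mettl14 and Wtap, and the YTH readers Ythdf1, Ythdf2, Ythdf3, Ythdc1 and Ythdc2. Each name matched 1 row. RNA was sequenced from peritoneal macrophages, phagocytes washed from the abdominal cavity, of C57BL/6 mice. Cells were kept for 24 h with R-2-HG at 0.1 mM (3 libraries, numbered 1 to 3) or with vehicle (3 libraries, numbered 1 to 3). The labels name no genotype, age or vehicle, and nothing says that libraries of a group came from separate animals or cultures, so the p-values measure the spread between these libraries, which may be technical.

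Writers use S-adenosylmethionine as the methyl donor. METTL3 is the catalytic subunit, METTL14 helps it hold RNA, and WTAP brings the pair to nuclear speckles. The erasers FTO and ALKBH5 are iron-dependent dioxygenases that need 2-oxoglutarate, and R-2-HG (R-2-hydroxyglutarate, the product of mutant isocitrate dehydrogenases) competes with 2-oxoglutarate. In human leukaemia cells R-2-HG is known to inhibit the FTO protein. That is an effect on enzyme activity, which RNA levels do not measure. YTH readers bind the mark: the cytoplasmic YTHDF proteins act on translation and decay of marked transcripts, YTHDC1 acts in the nucleus on splicing and export, and YTHDC2 is an RNA helicase known from meiosis in mouse germ cells.

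The unit is FPKM, in which a gene's fragments are scaled to transcript length and to the library's total. No counts were given; low values come in steps, which put the depth at about 13570000 to 16370000 fragments in R-2-HG libraries and 15490000 to 16720000 in vehicle libraries. All 7 macrophage markers averaged at least 1 FPKM, and they summed to between 18799 and 25595 FPKM per R-2-HG library and between 20271 and 22844 FPKM per vehicle library. Most of that sum was Lyz2 (mean 19829 FPKM), so it says little about the other markers. Itgam, for one, ranged from 44.4 FPKM in R-2-HG library 1 to 113 FPKM in R-2-HG library 2. Of the 5 T and NK cell markers, 3 mast cell markers and 3 dendritic cell markers, 0 averaged 1 FPKM or more. B cell and neutrophil lists had 1 such marker of 5 each, Ighm and S100a8. Ighm was uneven, at 32.4 FPKM in vehicle library 1 and between 4.56 and 8.03 FPKM in the other libraries.

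The promoters of both erasers and of the steadiest reader, Ythdf1, are shown because the erasers differ several-fold in level and Ythdf1 was the steadiest of the 10. Sequences are from RefSeq (GRCm38.p6), on the gene's strand, and end just before the RefSeq start or at the nearest base outside an annotated exon. Capitals mark the GC box, GGGCGG or its reverse complement CCGCCC. The stretches are chr8:91313292-91313524 (plus strand) for Fto, chr11:60537433-60537682 (plus strand) for Alkbh5 and chr2:180920950-180921186 (minus strand) for Ythdf1.
Fto: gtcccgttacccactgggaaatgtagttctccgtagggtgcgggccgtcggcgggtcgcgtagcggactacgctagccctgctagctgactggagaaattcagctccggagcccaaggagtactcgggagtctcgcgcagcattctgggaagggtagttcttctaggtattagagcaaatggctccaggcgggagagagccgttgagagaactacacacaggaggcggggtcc
Alkbh5: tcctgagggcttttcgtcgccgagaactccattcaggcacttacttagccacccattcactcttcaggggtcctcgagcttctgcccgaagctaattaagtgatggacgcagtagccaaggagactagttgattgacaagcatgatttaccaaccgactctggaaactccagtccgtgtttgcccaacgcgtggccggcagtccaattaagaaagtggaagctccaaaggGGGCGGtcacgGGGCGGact
Ythdf1: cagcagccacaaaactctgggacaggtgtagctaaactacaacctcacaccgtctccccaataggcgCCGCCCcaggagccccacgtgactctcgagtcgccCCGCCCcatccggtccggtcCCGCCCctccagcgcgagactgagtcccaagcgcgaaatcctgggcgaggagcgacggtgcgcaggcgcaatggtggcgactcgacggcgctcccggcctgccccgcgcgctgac
The RefSeq start of Alkbh5 (60537683) lies 1302 bases inside the gene as GENCODE M21 places it, whose start is 60536381, so the Alkbh5 stretch lies within the GENCODE gene, outside its exons. The RefSeq start of Fto is the GENCODE start, and that of Ythdf1 lies 13 bases inside it. In the 250 bases before the RefSeq start, the GC box, searched on both strands with overlaps counted, occurred 0 times for Fto, 2 times for Alkbh5 and 3 times for Ythdf1. It occurred at least once in 32.9% of 27025 promoters of that length. The TATA box TATAAA was found in 0 of the 3 and in 12.97% of all promoters. CG dinucleotides numbered 18 for Fto, 14 for Alkbh5 and 30 for Ythdf1, against a median of 6 over all promoters. These are descriptions of the letters in these windows. Start regions for 7 of the 10 genes were matched. Of those not shown, Mettl3 had 0 GC boxes, Ythdf2 1, Ythdc1 4 and Wtap 2 or 3 depending on the start. Ythdc1, with the most, averaged 3.61 FPKM over the 6 libraries, against 20.9 FPKM for Alkbh5. A link of GC boxes with level was not tested.

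The question of the design was what R-2-HG does to macrophage transcripts, here to the m6A genes. Of the 10 genes, 0 passed the test. All 10 averaged at least 1 FPKM over the 6 libraries and were tested with limma on log2(FPKM + 1) among 9701 genes, of which 0 (0%) had a Benjamini-Hochberg adjusted p under 0.05. At an unadjusted p under 0.05 there were 0 of the 10 genes and 140 (1.44%) of all genes tested. In 0 of the 10 did the R-2-HG libraries lie wholly apart from the vehicle libraries, against 4.69% of all genes tested. The changes ran from -0.15 for Fto to 0.22 for Ythdc1 on the log2(FPKM + 1) scale, with a median of 0.07 over the 10 and -0.0044 over all genes tested. Means were higher with R-2-HG for 6 and lower for 4, where 48.4% of all genes were higher and 51.6% lower. The 95% interval lay within 0.5 of 0 for 8 of the 10, against 60.2% of all genes. The scale understates the change of genes at a few FPKM. These p-values and intervals come from a fit that did not pair libraries by number, although same-numbered libraries varied together. With the number as a block, the SE was smaller for all 10. An unadjusted limma p under 0.05 was then found for 329 of the 9701 genes tested, and 0 of the 9701 had an adjusted p under 0.05. Of the 10 genes, 0 had an unadjusted limma p under 0.05 in the block, where the smallest was 0.126 for Ythdc1.

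**Figure D1:**
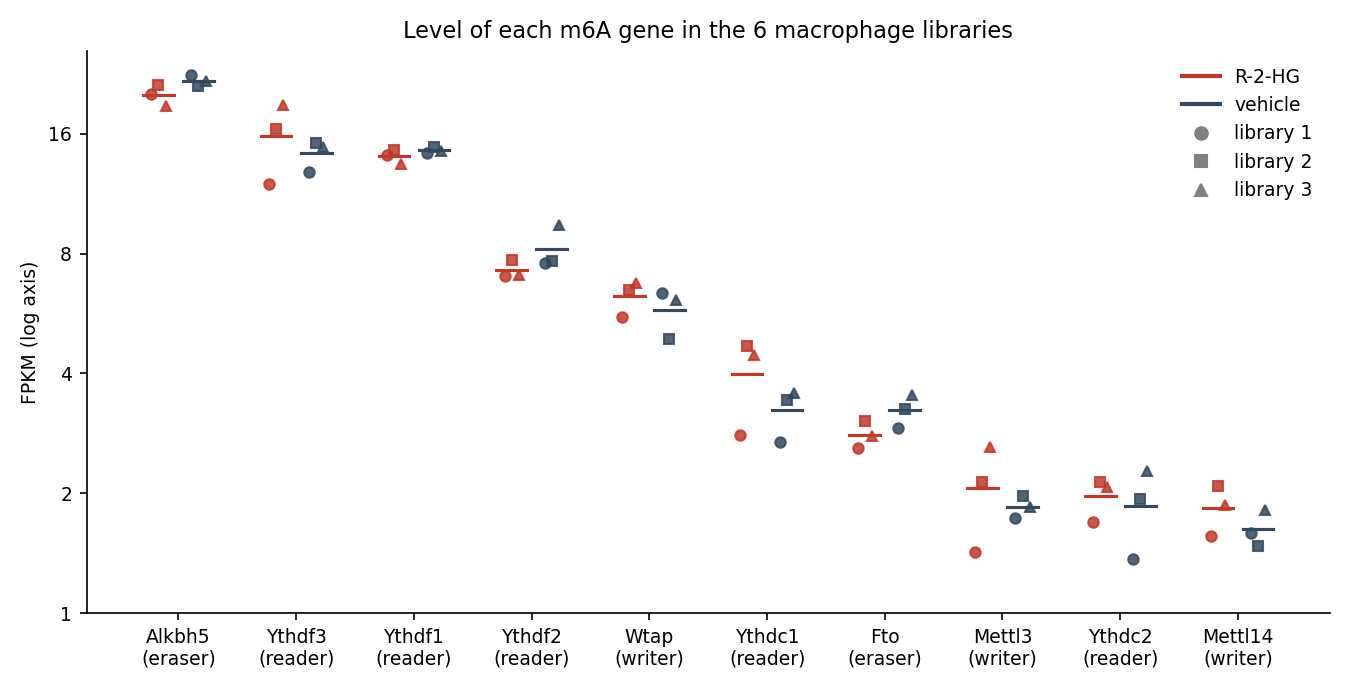
FPKM (log axis) of the 10 m6A genes, ordered by their mean over 6 libraries, with R-2-HG libraries in red left of vehicle libraries in dark blue; symbols give the library number and lines the group means. Levels span from 1.37 FPKM (Ythdc2, vehicle library 1) to 22.5 FPKM (Alkbh5, vehicle library 1), and the groups overlap for all 10 genes.

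Fto, the first eraser described (chromosome 8, 91313525 to 91668439, GRCm38, plus strand), stood at 2.60, 3.04 and 2.78 FPKM across R-2-HG libraries 1 to 3, against 2.92, 3.25 and 3.53 FPKM across vehicle libraries 1 to 3. Each R-2-HG library lay below the vehicle library of its number, but R-2-HG library 2 was above vehicle library 1, so the groups overlap. The group means were 2.81 ± 0.223 FPKM with R-2-HG and 3.23 ± 0.304 FPKM with vehicle (SD, n = 3 each). The log2 change was -0.15 (SE 0.13, 95% interval -0.45 to 0.14, limma adjusted p = 0.99998). A lower value in all 3 pairs of the same number was found for 2 of the 10 genes, Fto and Ythdf1, and for 11.8% of all genes tested. On the opposite strand, the gene models Gm45427 and 4831440D22Rik share 2.33% and 1.11% of the Fto exon bases, and strand handling is not given. The opposite-strand gene Rpgrip1l starts 263 bases upstream of the Fto start.

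Alkbh5, the eraser known for its part in mouse sperm development (chromosome 11, 60536381 to 60558512, plus strand), was the highest of the 10. It stood at 20.2, 21.3 and 18.8 FPKM across R-2-HG libraries 1 to 3, against 22.5, 21.04 and 21.7 FPKM across vehicle libraries 1 to 3. R-2-HG library 3 was the lowest and vehicle library 1 the highest, while library 2 of each group differed by little. The means were 20.1 ± 1.25 FPKM with R-2-HG and 21.7 ± 0.721 FPKM with vehicle (SD, n = 3 each), a log2 change of -0.11 (SE 0.10, 95% interval -0.34 to 0.12, limma adjusted p = 0.99998) that was -0.07 without R-2-HG library 3.

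The ratio of Alkbh5 to Fto in FPKM was 7.77, 6.99 and 6.75 in R-2-HG libraries 1, 2 and 3 and 7.70, 6.47 and 6.15 in vehicle libraries 1, 2 and 3. The ratio averaged 7.17 ± 0.531 with R-2-HG and 6.77 ± 0.814 with vehicle, a difference smaller than the SD within either group. Within numbers, the R-2-HG library had the higher ratio in all 3 pairs, which a test over 3 pairs could not call, since its smallest p is 0.25 (exact permutation). Alkbh5 thus made up 87.7 ± 0.776% of the summed eraser FPKM with R-2-HG and 87.0 ± 1.29% with vehicle (SD, n = 3 each).

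Of the writers, Mettl3 (chromosome 14, 52294841 to 52305128, minus strand) varied most among R-2-HG libraries, with a coefficient of variation of 29.0% against 14.2% for Mettl14 and 10.2% for Wtap, and least among vehicle libraries, with 6.21% against 10.6% for Mettl14 and 13.7% for Wtap. It stood at 1.43, 2.14 and 2.61 FPKM across R-2-HG libraries 1 to 3, against 1.73, 1.96 and 1.84 FPKM across vehicle libraries 1 to 3. Both the lowest and the highest value were in R-2-HG libraries, on either side of all vehicle libraries. The log2 change was 0.09 (SE 0.17, 95% interval -0.32 to 0.49, limma adjusted p = 0.99998), and it was -0.04 without R-2-HG library 3. The estimated fragments behind these values were few, 47 to 78 per library at the length of the longest coding transcript. Exons of the chromatin protein gene Tox4 on the opposite strand share 18.4% of the Mettl3 exon bases, and strand handling is not given in the sources used here, so the Mettl3 value is uncertain.

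Mettl14 (chromosome 3, 123368297 to 123386108, minus strand), the partner of Mettl3, stood at 1.57, 2.08 and 1.87 FPKM across R-2-HG libraries 1 to 3, against 1.59, 1.48 and 1.81 FPKM across vehicle libraries 1 to 3. R-2-HG libraries 2 and 3 were above all vehicle libraries and library 1 was not. For Mettl14 the log2 change was 0.11 (SE 0.14, 95% interval -0.22 to 0.44). It was 0.18 without R-2-HG library 1, 0.05 without R-2-HG library 2 and 0.07 without vehicle library 2. The ratio of Mettl3 to Mettl14, whose products bind each other one to one, averaged 1.11 ± 0.253 with R-2-HG and 1.15 ± 0.165 with vehicle (SD, n = 3 each).

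Wtap (chromosome 17, 12966796 to 12994169, minus strand), the adaptor, was the highest writer. It stood at 5.53, 6.47 and 6.75 FPKM across R-2-HG libraries 1 to 3, against 6.36, 4.88 and 6.11 FPKM across vehicle libraries 1 to 3. The lowest value was vehicle library 2, and the other libraries of both groups were mixed. Wtap had a log2 change of 0.10 (SE 0.14, 95% interval -0.22 to 0.42). That value was 0.00 without vehicle library 2. Wtap was 3.16 ± 0.659 times Mettl3 in FPKM with R-2-HG and 3.16 ± 0.606 times with vehicle.

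The cytoplasmic readers were among the most abundant of the 10. Ythdf1 (chromosome 2, 180904377 to 180920949, minus strand) stood at 14.1, 14.6 and 13.5 FPKM across R-2-HG libraries 1 to 3, against 14.3, 14.8 and 14.5 FPKM across vehicle libraries 1 to 3. All 6 values lay close together, with the highest 1.10 times the lowest. This gave a log2 change of -0.05 (SE 0.10, 95% interval -0.28 to 0.18), with -0.02 without R-2-HG library 3 and -0.07 without R-2-HG library 2.

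Ythdf2 (chromosome 4, 132184912 to 132212303, minus strand), which recruits a deadenylase to marked transcripts in human cells, stood at 7.05, 7.72 and 7.05 FPKM across R-2-HG libraries 1 to 3, against 7.56, 7.65 and 9.42 FPKM across vehicle libraries 1 to 3. Vehicle library 3 stood above the other 5 libraries. Its change on the log2 scale was -0.15 (SE 0.13, 95% interval -0.44 to 0.14), and -0.06 without vehicle library 3.

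Ythdf3 (chromosome 3, 16183212 to 16217037, plus strand), which works with the other YTHDF proteins, stood at 11.97, 16.4 and 18.9 FPKM across R-2-HG libraries 1 to 3, against 12.8, 15.2 and 14.8 FPKM across vehicle libraries 1 to 3. Library 1 was the lowest of its group in both groups, and R-2-HG library 3 was the highest. The log2 change was 0.12 (SE 0.17, 95% interval -0.28 to 0.51), with -0.02 without R-2-HG library 3 and 0.29 without R-2-HG library 1.

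The 3 YTHDF transcripts summed to 33.1, 38.8 and 39.4 FPKM across R-2-HG libraries 1 to 3 and to 34.7, 37.7 and 38.7 FPKM across vehicle libraries 1 to 3. Means of the sum were 37.1 ± 3.44 FPKM with R-2-HG and 37.0 ± 2.07 FPKM with vehicle. Within the sum, Ythdf3 made up 36.1%, 42.4% and 47.9% in R-2-HG libraries 1, 2 and 3 and 36.9%, 40.3% and 38.2% in vehicle libraries 1, 2 and 3. The R-2-HG libraries thus spread across a wider range than the vehicle libraries and reached both below and above them.

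Ythdc1 (chromosome 5, 86804221 to 86836659, plus strand), the nuclear reader, had the largest change of the 10. It stood at 2.79, 4.68 and 4.46 FPKM across R-2-HG libraries 1 to 3, against 2.69, 3.44 and 3.58 FPKM across vehicle libraries 1 to 3. Each R-2-HG library was above the vehicle library of its number, and R-2-HG library 1 was below vehicle libraries 2 and 3. Its log2 change was 0.22 (SE 0.19, 95% interval -0.22 to 0.65, limma adjusted p = 0.99998). It was 0.40 without R-2-HG library 1 (unadjusted p = 0.0418, adjusted p = 0.9990 with limma, and at least 0.912 over all alternatives) and 0.11 without R-2-HG library 2. A higher value in all 3 pairs was found for 1 of the 10 genes and 11.7% of all genes tested. A long noncoding RNA model on the same strand shares 4.62% of the Ythdc1 exon bases.

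Ythdc2, the helicase reader, stood at 1.69, 2.14 and 2.07 FPKM across R-2-HG libraries 1 to 3, against 1.37, 1.93 and 2.27 FPKM across vehicle libraries 1 to 3. Vehicle libraries 1 and 3 were the lowest and the highest of the 6. For Ythdc2 the log2 change was 0.06 (SE 0.17, 95% interval -0.32 to 0.45), and -0.07 without vehicle library 1.

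**Figure D2:**
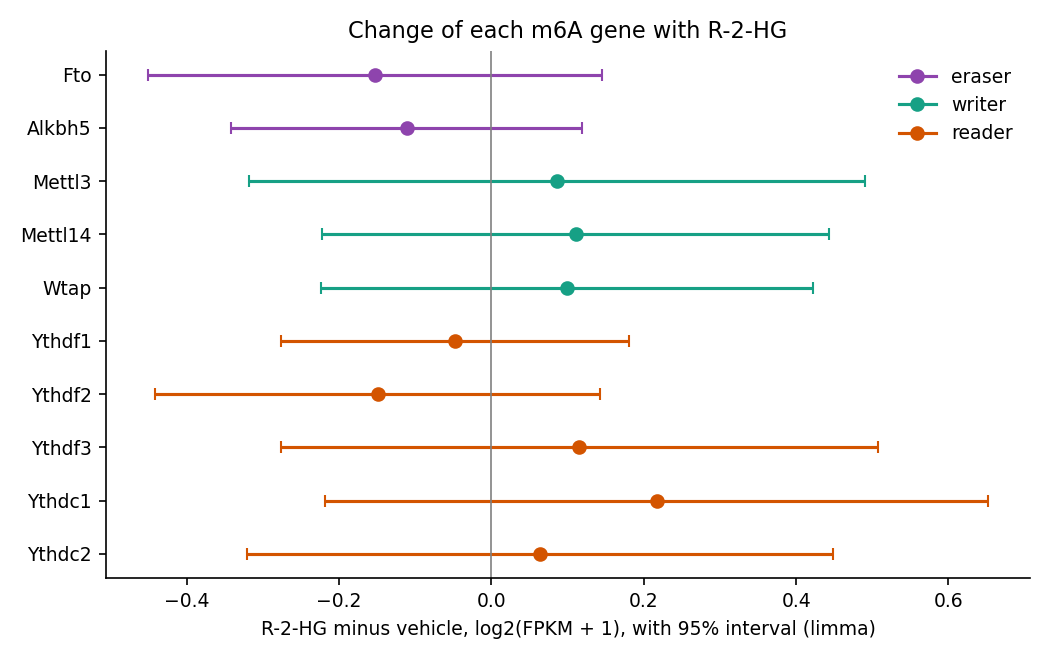
Change of each m6A gene, R-2-HG minus vehicle on the log2(FPKM + 1) scale (points) with the 95% interval from limma (bars; 3 libraries per group), coloured by role. All 10 intervals include 0, and the widest runs from -0.22 to 0.65 for Ythdc1.

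The order of levels was tested within libraries, since FPKM is per length. The transcript lengths used for the scaling are not given, and coding transcripts of Fto, for one, run from 762 to 4707 bp in GENCODE M21. All 45 pairs of genes were compared with an exact two-sided sign-flip permutation test of their log2 ratio over the 6 libraries, whose smallest possible p is 0.03125, and 39 pairs passed after adjustment over the 45 (adjusted p = 0.0361, exact permutation test). This test takes the 6 libraries as independent, although libraries of one number varied together. With the 2 libraries of a number averaged, the smallest possible p over the 3 numbers is 0.25, so 0 of the 45 pairs could pass, and with 1 library left out it is 0.0625, so again 0 could. Those 39 pairs had the same order in all 6 libraries. By their mean over 6 libraries the genes ran from Alkbh5 (20.9 FPKM) through Ythdf3 (15.0), Ythdf1 (14.3), Ythdf2 (7.74), Wtap (6.02), Ythdc1 (3.61), Fto (3.02), Mettl3 (1.95) and Ythdc2 (1.91) to Mettl14 (1.73 FPKM). Of the 9 neighbouring pairs in that order, 4 passed. Those were Ythdf1 over Ythdf2, Ythdf2 over Wtap, Wtap over Ythdc1 and Fto over Mettl3. The Mettl3 value is uncertain, since its exons overlap those of Tox4 and strand handling is not given. Neighbours that did not pass were Alkbh5 and Ythdf3 (log2 difference 0.46 ± 0.28, SD over 6 libraries, Alkbh5 higher in 5), Ythdf3 and Ythdf1 (0.05 ± 0.24), Ythdc1 and Fto (0.18 ± 0.26), Mettl3 and Ythdc2 (0.02 ± 0.18), and Ythdc2 and Mettl14 (0.09 ± 0.14). Mettl3 and Mettl14, 2 steps apart, made the sixth such pair (0.10 ± 0.16). The erasers differed in all 6 libraries, with Alkbh5 at a median of 6.87 times the FPKM of Fto.

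Against all 9701 genes tested, Alkbh5 stood above 81.8% by mean FPKM, Ythdf3 above 74.99%, Ythdf1 above 74.0% and Fto above 27.0%. The catalytic writer Mettl3 stood above 14.9% and its partner Mettl14 above 11.7%. Erasers made up 30.2 ± 2.83% of the FPKM summed over the 10 genes with R-2-HG and 32.7 ± 1.44% with vehicle. Writers made up 13.3 ± 0.954% with R-2-HG and 12.1 ± 1.06% with vehicle, and readers 56.5 ± 1.88% with R-2-HG and 55.1 ± 2.32% with vehicle (SD, n = 3 each). These shares were not tested.

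The spread between these libraries also differed among the genes, which was not tested. Ythdf1 had the smallest spread, a within-group SD of 0.04 on the log2(FPKM + 1) scale, where 0.884% of 3167 other genes within 0.5 to 2 times its level had a smaller one. Its coefficient of variation was 3.98% in R-2-HG libraries and 1.63% in vehicle libraries. Counting alone would give about 3.60% to 3.98% at the 630 to 773 fragments estimated for it, more than the vehicle value. An SD from 3 libraries per group is itself imprecise. The erasers followed, with within-group SDs of 0.07 for Alkbh5 and 0.09 for Fto, and 6.52% and 8.03% of genes of like level below them. At the other end, Ythdf3 (SD 0.24) and Ythdc1 (SD 0.26) varied more than 72.9% and 67.8% of genes of like level. The other 8 genes had a smaller SD than the median gene of their level. Fragment numbers depend on the transcript length assumed, and these percentages cover counting error only.

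**Figure D3:**
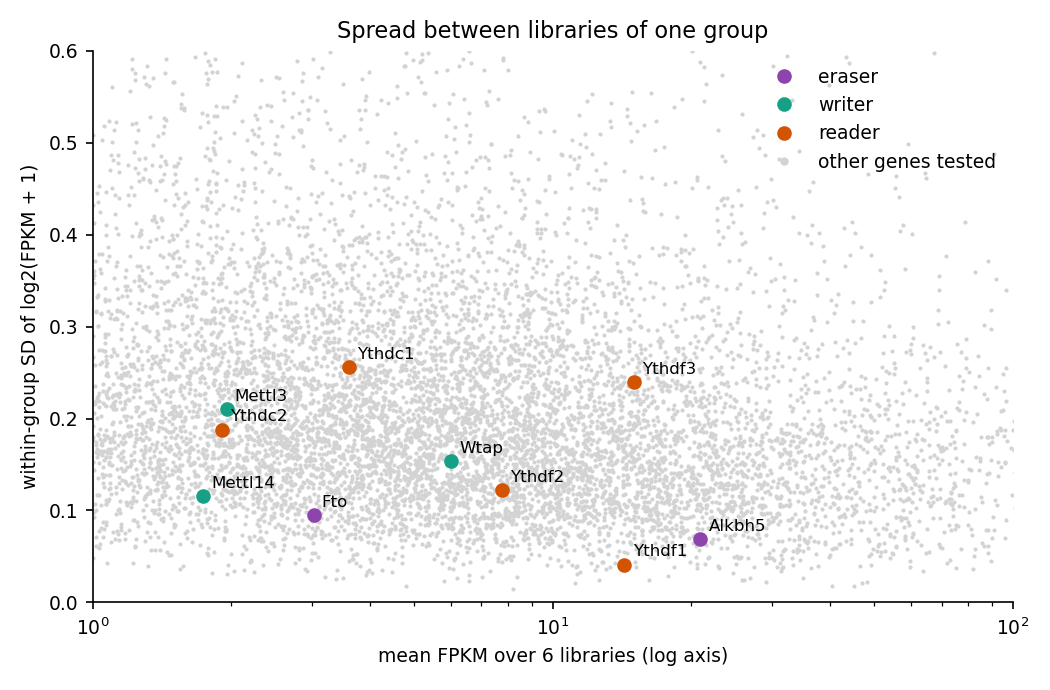
Within-group SD of log2(FPKM + 1) against mean FPKM (log axis) for the 10 m6A genes, coloured by role, and the other genes tested (grey); 607 genes lie outside the axes, which end at 100 FPKM and an SD of 0.6. Ythdf1, Alkbh5 and Fto sit near the bottom of the cloud at their levels, while Ythdf3 and Ythdc1 sit in its upper part.

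Part of this spread followed the library number. Of the 10 genes, 6 (Fto, Mettl3, Ythdf2, Ythdf3, Ythdc1 and Ythdc2) had their lowest value in library 1 in both groups, as did 20.0% of all genes tested; for Ythdf2, R-2-HG libraries 1 and 3 were almost equal. None of the 10 had the same order of the 3 libraries in both groups, against 30.8% of all genes. Library 1 of both groups was also high in fibroblast transcripts. The collagen gene Col1a1 stood at 29.7, 5.36 and 0.965 FPKM across R-2-HG libraries 1 to 3 and at 31.3, 10.9 and 1.46 FPKM across vehicle libraries 1 to 3. Of the 5 fibroblast and mesothelial markers listed, 3 averaged at least 1 FPKM. The sum of the 5 spanned 3.56 to 57.7 FPKM among R-2-HG libraries and 3.44 to 62.2 FPKM among vehicle libraries. Of the mesothelial markers, Msln was 0 in R-2-HG library 3 and in vehicle libraries 1 and 2. Upk3b was highest in library 1 of both groups, at 1.09 FPKM with R-2-HG and 0.592 FPKM with vehicle. The part of other cells in the m6A values was not tested, and in bulk RNA fewer cells of a type and less RNA per cell cannot be told apart.

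**Figure D4:**
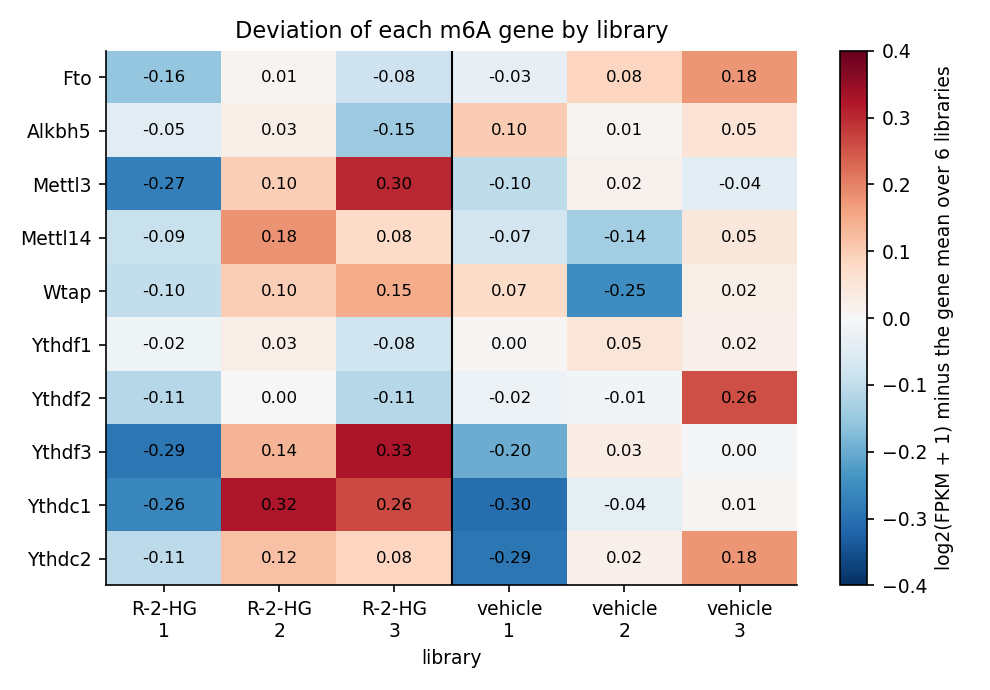
Log2(FPKM + 1) of each m6A gene in each library minus its mean over the 6 libraries; red is above and blue below the mean, with R-2-HG libraries on the left. Library 1 is below the mean in both groups for Mettl3 (-0.27 with R-2-HG, -0.10 with vehicle), Ythdf3 (-0.29 with R-2-HG, -0.20 with vehicle), Ythdc1 (-0.26 with R-2-HG, -0.30 with vehicle) and Ythdc2 (-0.11 with R-2-HG, -0.29 with vehicle).

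Other genes of the m6A pathway, from lists set by function, gave 0 calls as well. For the rest of the writer complex and other RNA adenine methyltransferases, 11 of 12 listed genes were tested, of which 6 had higher means and 5 lower means (median log2 change 0.00). The smallest p belonged to Trmt112, a cofactor of several methyltransferases (log2 change 0.19, SE 0.15), followed by Mettl5, which methylates ribosomal RNA (-0.17, SE 0.19), and Rbm15b, an RNA-binding adaptor of the writer complex (-0.10, SE 0.11). Of the 11, 1 gene had R-2-HG libraries wholly below vehicle libraries, against 2.66% of all genes tested. It was Mettl16, named after its values were seen, a methyltransferase of the S-adenosylmethionine synthetase transcript in human cells. Mettl16 stood at 1.48, 1.46 and 1.58 FPKM across R-2-HG libraries 1 to 3, against 1.59, 1.73 and 1.60 FPKM across vehicle libraries 1 to 3, a log2 change of -0.08 (SE 0.13) that did not pass.

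Among other m6A-binding proteins, 14 of 16 were tested, of which 9 had higher means and 5 lower means (median 0.03). Fxr2, a relative of the fragile X protein, was wholly higher in R-2-HG libraries, as were 2.03% of all genes tested, at 13.29, 13.998 and 16.7 FPKM across R-2-HG libraries 1 to 3, against 13.27, 12.5 and 12.8 FPKM across vehicle libraries 1 to 3. R-2-HG library 1 and vehicle library 1 were almost equal, and the log2 change of 0.17 (SE 0.12) did not pass. Next by p were Igf2bp2, which stabilises marked transcripts in human cells (-0.15, SE 0.14), and Fmr1, the fragile X gene (0.14, SE 0.14). Of the decay factors and cofactors of YTH readers, 11 of 14 were tested, of which 4 had higher means and 7 lower means (median -0.03), led by the helicase gene Upf1 (-0.13, SE 0.13) and the deadenylase complex genes Cnot6 (0.08, SE 0.17) and Cnot3 (0.06, SE 0.13).

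For the supply of S-adenosylmethionine, 4 of 6 genes were tested, of which 2 had higher means and 2 lower means (median 0.01). Mat2a, the S-adenosylmethionine synthetase whose transcript METTL16 marks in human cells, stood at 11.8, 11.4 and 17.1 FPKM across R-2-HG libraries 1 to 3, against 12.5, 9.41 and 8.41 FPKM across vehicle libraries 1 to 3. R-2-HG library 3 was the highest of the 6, and vehicle library 1 lay above the other R-2-HG libraries. The log2 change was 0.38 (SE 0.19, 95% interval -0.07 to 0.82, unadjusted p = 0.0888 and adjusted p = 0.99998, limma). Ahcy, which removes the by-product of methylation, changed by -0.20 (SE 0.24) and its relative Ahcyl1 by 0.06 (SE 0.14), and neither passed.

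Of 6 transcripts named in published work on R-2-HG or FTO and m6A in human leukaemia cells, 4 were tested, of which 3 had higher means and 1 a lower mean (median 0.08). The glycolysis gene Pfkp stood at 8.59, 9.67 and 11.6 FPKM across R-2-HG libraries 1 to 3, against 9.36, 10.04 and 11.5 FPKM across vehicle libraries 1 to 3. The lactate dehydrogenase gene Ldhb stood at 22.8, 16.008 and 13.4 FPKM across R-2-HG libraries 1 to 3, against 22.5, 17.1 and 11.3 FPKM across vehicle libraries 1 to 3. The lowest Pfkp value was in library 1 and the highest in library 3 in both groups, and for Ldhb it was the reverse. The log2 changes were -0.05 (SE 0.14) for Pfkp and 0.05 (SE 0.27) for Ldhb, and neither passed. Cebpa, a myeloid transcription factor gene, changed by 0.12 (SE 0.14) and the retinoic acid receptor gene Rara by 0.11 (SE 0.13), and neither passed. Myc lay below the filter at 0.831, 0.736 and 0.715 FPKM across R-2-HG libraries 1 to 3 and 0.733, 0.968 and 0.806 FPKM across vehicle libraries 1 to 3, and Asb2 was at most 0.057 FPKM.

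**Figure D5:**
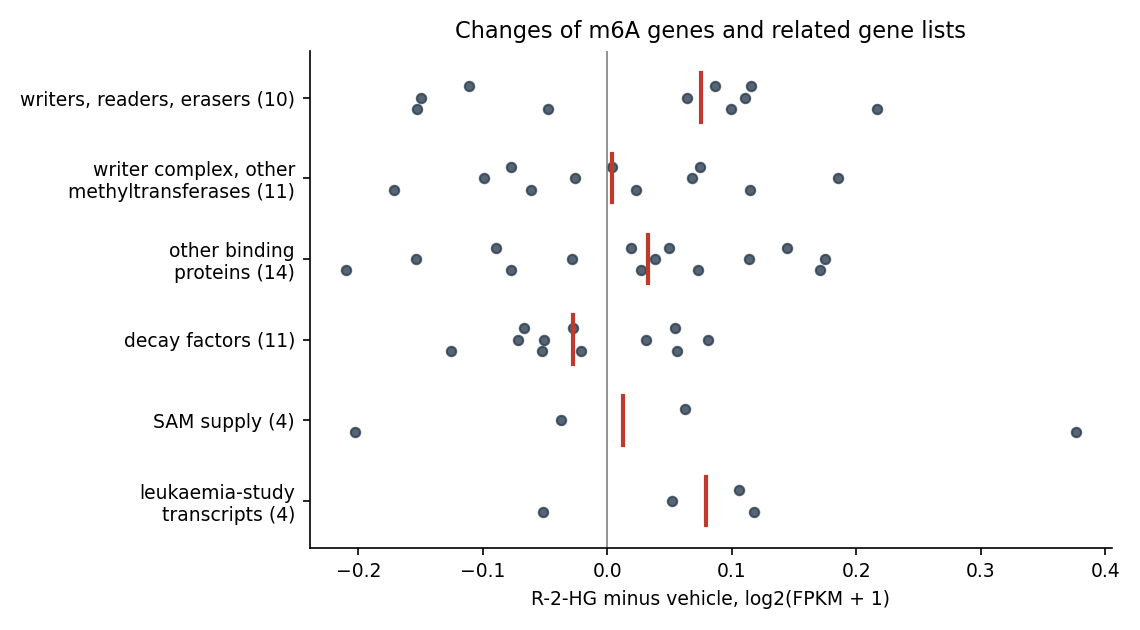
Log2(FPKM + 1) change, R-2-HG minus vehicle, of each tested gene (points; number in brackets) among the m6A genes and 5 related lists, with the median of each list in red. Medians lie between -0.03 and 0.08, and the largest single change is 0.38 for Mat2a.

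The genes whose pattern over the 6 libraries was most like that of an eraser were found by the root mean square difference of log2(FPKM + 1) deviations, among genes at least as variable. For Fto these were Trmt2a (0.02), Slc26a6 (0.03) and Dennd2a (0.04), out of 7671 genes compared. Trmt2a stood at 3.01, 3.55 and 3.35 FPKM across R-2-HG libraries 1 to 3, against 3.53, 3.96 and 4.16 FPKM across vehicle libraries 1 to 3, the same order of libraries as Fto within each group. For Alkbh5 they were Coro2a (0.02), Atp5b (0.03) and Ppp1r16a (0.03), out of 8898. All of these genes were picked for likeness over the same 6 values, so a shared order of libraries follows from the choice. Whether any of them is regulated together with an eraser was not tested.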

How the data were processed

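The 6 libraries were grouped by their titles. The authors deposited FPKM values for 34745 genes in 1 table, with 1 column for each library, and these values were taken unchanged. The submitters' processing notes name Bowtie 0.12.2, Cuffdiff, mm8 and mm10, with no role or order; annotation and strand handling: not given in the sources used here. Total RNA was cleaned with a column kit and DNase before library preparation, per the labels' protocols. FPKM keeps no counts, so no count test was run.

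Identifiers were matched to GENCODE M21 (GRCm38), which held 34344 of them and may not be the authors' annotation. Genes averaging 1 FPKM or more across libraries entered the test: limma 3.58.1 (R 4.3.3; trend, robust) on log2(FPKM + 1), two-sided, threshold 0.05. A change is R-2-HG minus vehicle. The script was tried on simulated data. With 3 libraries a side an exact permutation p is never under 0.1, which is why limma was used. Depth came from 7092 single-transcript genes over 1000 bp, where between 95.5% and 96.7% of low values lay within 0.1 of a whole fragment.

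All 10 m6A genes are named, with up to 3 genes of smallest p per related list, all leukaemia transcripts and the 3 genes most like each eraser. The genes and lists were chosen with earlier results of these data known. A gene listed under a newer symbol was matched by identifier. Alternatives covered the pseudocount, the filter, 2 scalings, the robust step, each library left out and the replicate number as a block. Deviations of same-numbered libraries from their group means correlated at 0.54, 0.37 and 0.36 over 9701 genes for numbers 1, 2 and 3, so the numbers pair the samples; the pairing comes from the data, since the titles do not say what a number marks. Python 3.11.15, pandas 2.3.3, numpy 2.4.6 and matplotlib 3.10.9 were used.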

Additional observations from a re-analysis of the deposited data

How the results depend on the processing

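With limma, 0 of 9701 genes passed in the reported fit (140 at an unadjusted p under 0.05). The count was also 0 with other pseudocounts, filters and scalings, without the robust step, and in the replicate block, the pairing by number. Leaving out 1 library gave 0 to 1 calls, with 1 without R-2-HG library 1 and 1 without R-2-HG library 3. In the replicate block, 1 gene was called when both number 1 libraries were left out and 4 when both number 3 libraries were. None of these calls was one of the 10 m6A genes. The block changed no call of an m6A gene; the change of Ythdc1 was 0.22 there too, with an SE of 0.12.

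None of the 10 genes was called under any of the alternatives; the filter at 5 FPKM left out Fto, Mettl3, Mettl14, Ythdc1 and Ythdc2. Signs turned in 5 of 165 cases; the cause was not tested. Mettl3 came to -0.0435 without R-2-HG library 3 and to -0.0441 in the block that left out number 3. Wtap came to -0.0234 in the block that left out number 2, Ythdf3 to -0.0188 without R-2-HG library 3 and Ythdc2 to -0.0656 without vehicle library 1. Leaving out single libraries, the change ranged from -0.21 to -0.10 for Fto, from -0.15 to -0.07 for Alkbh5, from 0.05 to 0.18 for Mettl14, from -0.07 to -0.02 for Ythdf1, from -0.20 to -0.06 for Ythdf2, from 0.11 to 0.40 for Ythdc1, from -0.0435 to 0.24 for Mettl3, from 0.00 to 0.17 for Wtap, from -0.0188 to 0.29 for Ythdf3 and from -0.0656 to 0.17 for Ythdc2. All 45 level comparisons kept direction and call with a pseudocount of 0.1. Of the 39 that passed, 0 passed with any 1 library left out (smallest possible exact permutation p 0.0625) and 0 in the block by number, an alternative chosen after seeing the data (smallest possible p 0.25). With 1 library left out, the order turned for pairs that had not passed. These were Ythdf3 and Ythdf1 without R-2-HG library 3 (-0.03), and Mettl3 and Ythdc2 without R-2-HG library 3 (-0.03) or vehicle library 1 (-0.02). A single fragment of a 2 kb transcript is worth 0.0299 to 0.0368 FPKM across libraries, and one of a longer transcript less.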
